A study of Homo sapiens with 9 samples.

Results

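ABC transporters are membrane proteins, with a few soluble relatives, that carry the ATP-binding cassette. They were taken here as every gene in the deposited count table whose symbol is ABC with a subfamily letter from A to G and a number, or CFTR, leaving out genes named as pseudogenes. The rule found 41 of 17911 genes. They were sorted by known role into 9 drug efflux members, 16 lipid and sterol members, 3 peroxisomal, 2 lysosomal, 4 mitochondrial and 4 translation members, and 3 others (the channel regulators ABCC8 and ABCC9, and ABCC6). ABCB5, ABCB11, ABCA13, ABCC12 and CFTR were not analysed here.

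The study grew cells labelled MDA-MB-231, an established human line from a triple-negative breast cancer, in capsules or as liquid overlay spheroids, and measured RNA by sequencing. All 9 samples carry one treatment text, capsules included: liquid overlay with 5% Matrigel (a basement membrane gel) after trastuzumab, an antibody against ERBB2, and 96 h before RNA was taken. The growth medium was RPMI with 10% fetal bovine serum. There were 3 capsule libraries and 6 spheroid libraries, and the spheroids fall by column name into 3 called L.O and 3 called Sph.WT. WT is the cell type label of all 9 samples, so it does not set the Sph.WT columns apart. The labels also divide the spheroids into small and large, but neither column name gives a size, so none is used here. No untreated culture is in the design, and nothing in the labels says that replicates came from separate cultures, so p-values measure the spread between these libraries, which may be technical.

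The 2 spheroid sets stood far apart, and this bears on every value below. Library totals ran from 13212665 to 13735221 counts in capsules, 15525725 to 15988167 in L.O and 16605098 to 33263076 in Sph.WT. Pearson correlations of log expression between libraries, across genes, were 0.979 to 0.986 between capsule and L.O, 0.764 to 0.773 between capsule and Sph.WT, and 0.750 to 0.769 between L.O and Sph.WT. A list of 16 genes that MDA-MB-231 is known to express summed to 798.93 to 811.117 CPM (counts per 1e6 counts of the library total) in capsules and 1123 to 1274 CPM in L.O, against 7745 to 8095 CPM in Sph.WT. CDKN2A and CDKN2B, which are deleted in that line, summed to 494 to 572 CPM in capsules and 506 to 732 CPM in L.O, against 0.662 to 1.16 CPM in Sph.WT. The 5 marker genes of HEK293 cells or neuronal lineage summed to 2038 to 2187 CPM in capsules and 1879 to 2036 CPM in L.O, against 28.1 to 31.6 CPM in Sph.WT. Of the first list, 13 genes reached 1 CPM in capsules and 15 in L.O, against 16 in Sph.WT, and NEFL of the third list was at 0 in every Sph.WT library. Fibroblast markers summed to 42.8 to 47.0 CPM in capsules and 89.1 to 102 CPM in L.O, against 166 to 198 CPM in Sph.WT, and 2 immune markers to 8.09 to 10.6 and 26.4 to 29.4 CPM, against 130 to 147 CPM. Not all fibroblast markers went that way. Of 5 tested in capsules against Sph.WT, 1 was higher, 3 lower and 1 not called, and L.O against Sph.WT gave the same counts. The Sph.WT column names carry no cell line name. The capsule and L.O libraries go against the MDA-MB-231 label and are named by their labels only. Between capsules and L.O, 24.7% of all genes tested were higher in capsules and 25.4% lower, and 6.33% passed with 2-fold. Of 15 MDA-MB-231 genes tested, 10 were lower in capsules (5 by 2-fold) and 0 higher. Of 5 HEK293 or neuronal genes 4 were higher and 0 lower, and 2 of 3 fibroblast markers were lower. Of 2 immune markers, 1 was lower and 1 was not called. CD68, an immune marker, averaged 8.54 CPM in capsules, against 26.7 CPM in L.O. The marker values thus move with the contrast of capsules against L.O as well as with both contrasts against Sph.WT; their part in the members' differences was not tested, and culture format cannot be told apart from whatever else separates the sets.

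In these proteins ATP binding and hydrolysis usually drive a substrate across a membrane. Plasma membrane pumps such as ABCB1, ABCG2 and the ABCC group export drugs and conjugates and are known for multidrug resistance in tumours, while A and G members move sterols and phospholipids, and D members carry fatty acyl groups into peroxisomes. ABCE1 and the ABCF proteins have no membrane part and act on ribosomes.

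Promoter sequences (250 bases before to 50 after the gene start, RefSeq, GRCh38.p14, the assembly that hg38 denotes) were found for 32 of the 41 members. Shown are 3 whose levels separate the sets in the results that follow: the pumps ABCB1 (chr7:87713246-87713545, minus strand) and ABCG2 (chr4:88231577-88231876, minus strand), and the cholesterol exporter ABCA1 (chr9:104928106-104928405, minus strand). Each runs 5′ to 3′ in the direction of the gene, and capitals mark matches to the motifs searched.
ABCB1: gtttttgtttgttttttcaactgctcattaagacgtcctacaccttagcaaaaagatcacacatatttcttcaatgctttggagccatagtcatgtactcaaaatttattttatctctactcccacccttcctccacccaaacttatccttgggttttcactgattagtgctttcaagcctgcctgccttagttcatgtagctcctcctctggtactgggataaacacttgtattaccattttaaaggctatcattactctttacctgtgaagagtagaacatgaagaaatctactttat
ABCG2: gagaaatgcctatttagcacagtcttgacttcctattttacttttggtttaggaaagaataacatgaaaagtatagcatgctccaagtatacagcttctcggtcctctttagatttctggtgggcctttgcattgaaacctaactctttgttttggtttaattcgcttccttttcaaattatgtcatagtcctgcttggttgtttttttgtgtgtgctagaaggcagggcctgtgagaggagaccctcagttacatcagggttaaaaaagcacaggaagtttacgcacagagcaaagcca
ABCA1: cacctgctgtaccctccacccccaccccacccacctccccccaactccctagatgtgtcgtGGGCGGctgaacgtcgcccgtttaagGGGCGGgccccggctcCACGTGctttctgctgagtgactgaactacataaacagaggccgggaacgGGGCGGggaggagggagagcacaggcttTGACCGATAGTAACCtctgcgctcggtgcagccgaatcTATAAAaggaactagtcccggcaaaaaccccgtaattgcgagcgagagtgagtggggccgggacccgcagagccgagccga
Motifs were searched on both strands in these 32 windows and in all 27305 promoters of this length. GGGCGG, the GC box, was in 18 of the 32 members and in 44.59% of all promoters. The CCAAT box by its letters was in 6 members and 35.7% of all, and TATAAA, the TATA box, in 5 members and 11.95% of all. CACGTG, an E-box, was in 4 members and 7.43% of all, and TGANTCA, an AP-1 site, in 1 member and 7.76% of all. The direct repeat DR4 of nuclear receptors, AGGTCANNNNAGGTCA, was in 0 members and 0.02% of all. A form of DR4 known in the ABCA1 promoter, where the oxysterol receptor LXR binds, was searched as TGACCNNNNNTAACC after the sequence had been seen and was in 1 member, ABCA1, and 0.07% of all. The ABCA1 window held 3 GC boxes, 1 TATA box, 1 E-box and the DR4 form, and overlaps between motifs were not removed. The windows of ABCB1 and ABCG2 held none of these letters, and their GC contents were 37.7% and 40.3%, against a median of 62.4% over the 32 members and 58.3% over all promoters. A match is a description of letters and not a binding site, and RefSeq's start may not be the one used in these cells.

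Over all members, levels were broad. In capsules 30 members reached 1 CPM in all 3 libraries, in L.O 30 and in Sph.WT 26, and 24 did so in all 9 libraries. Per kilobase of exon, which allows genes to be compared, the highest members in capsules were ABCF2 at 30.1 ± 1.02, ABCE1 at 25.8 ± 1.63 and the lung surfactant lipid carrier ABCA3 at 17.0 ± 1.03 CPM per kilobase (SD, n = 3 libraries). ABCF2, ABCA3 and ABCE1 also led in L.O, at 24.2 ± 2.41, 18.9 ± 2.59 and 14.7 ± 1.74 CPM per kilobase (SD, n = 3). Sph.WT differed in its lead: ABCC3, a pump for bile acids and organic anion conjugates, stood at 83.4 ± 4.43 CPM per kilobase, and ABCF2 came next at 22.6 ± 2.19 (SD, n = 3). Neighbours in the order often overlapped, as ranges of libraries did in 15 of 30 neighbouring pairs in capsules, 20 of 33 in L.O and 18 of 26 in Sph.WT.

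**Figure D1:**
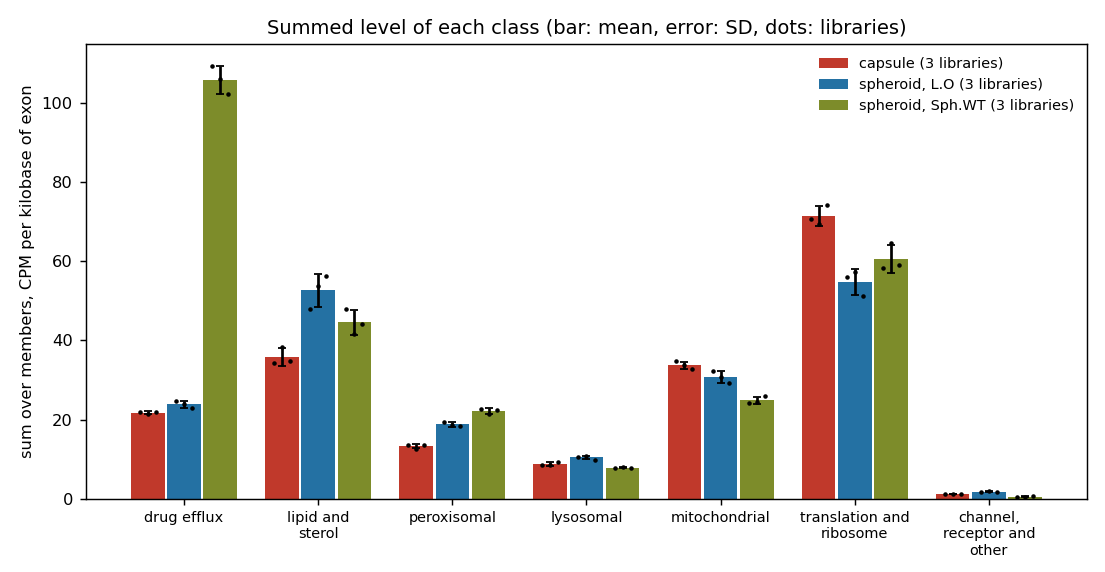
Summed level of each class of ABC transporters in CPM per kilobase of exon (vertical axis), in capsules, L.O and Sph.WT from left to right within each class; bars are means over 3 libraries, error bars SD and dots single libraries. Drug efflux averaged 21.7 in capsules and 23.8 in L.O against 106 in Sph.WT, where ABCC3 gave 78.7% of the sum, and translation members averaged 71.5 in capsules against 54.9 in L.O.

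The plot of class sums shows where the sets part. Summed drug efflux levels were 21.7 ± 0.372 in capsules and 23.8 ± 0.957 in L.O, against 106 ± 3.54 CPM per kilobase in Sph.WT (SD, n = 3 each). Lipid and sterol members summed to 35.8 ± 2.20 in capsules, 52.7 ± 4.20 in L.O and 44.6 ± 3.22 CPM per kilobase in Sph.WT (SD, n = 3 each). Translation members summed to 71.5 ± 2.54 in capsules, 54.9 ± 3.27 in L.O and 60.7 ± 3.52 CPM per kilobase in Sph.WT (SD, n = 3 each). By library totals, capsules were thus lowest for lipid carriers and highest for translation members. In the fit against Sph.WT below, scaled by TMM, the median log2 fold change of the 4 translation members was -0.16. In that fit ABCE1 was higher in capsules, ABCF2 was not called, and ABCF1 and ABCF3 were lower. A median weighs the members alike, as a sum does not, and no sum was scaled by TMM. The order of the sums between capsules and Sph.WT may hang on the scaling, which was not tested. These sums follow their most abundant members and carry no test.

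Capsules were first set against all 6 spheroid libraries, the comparison that the labels allow. In that edgeR quasi-likelihood fit with Benjamini-Hochberg adjustment over 16985 genes, 0 of 37 members tested were higher and 2 were lower at an adjusted p under 0.05. The background was 2.3% of all genes higher and 1.47% lower. Both members also passed 2-fold, as 1.04% of genes did (41 higher, 136 lower). The median log2 fold change was -0.18 over the members and -0.06 over all genes tested. DESeq2 called 3 members higher and 7 lower, and at an unadjusted p under 0.05 edgeR had 10 of 37 members; the common biological coefficient of variation was 66.0%, against 7.33% with L.O alone.

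One of the members lower in capsules was ABCA7, a phospholipid carrier. ABCA7 had 48.4, 53.0 and 49.0 CPM in capsules, against 97.3, 107 and 109 CPM in L.O and 146, 125 and 129 CPM in Sph.WT. All 3 capsule libraries lay below all 6 spheroid libraries. ABCA7 had a log2 fold change of -1.37 ± 0.28 (SE, adjusted p = 0.0362). The call did not hold without any one of the capsule libraries, where the adjusted p ranged from 0.153 to 0.195, nor without each Sph.WT library, at adjusted p from 0.0656 to 0.0777. Across these runs the log2 fold change of ABCA7 stayed between -1.42 and -1.28. In the runs without a capsule library no gene passed by edgeR, so the loss there is not particular to ABCA7.

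Because the spheroid sets differ so widely, capsules were also set against each set alone, and the sets against each other. These 3 comparisons share libraries in pairs, so their values are given side by side and no likeness between them is read as a result. Against L.O, 6 of 34 members tested were higher in capsules and 11 lower, beside 24.7% of 15919 genes higher and 25.4% lower. Against Sph.WT, 12 of 34 were higher and 18 lower, beside 43.2% of 16157 genes higher and 42.9% lower. L.O against Sph.WT gave 11 of 37 higher and 19 lower, beside 42.4% of 16985 genes higher and 43.1% lower. A 2-fold difference was reached by 5 members (0 higher, 5 lower) in capsules against L.O, where 6.33% of genes did (126 higher, 882 lower). In capsules against Sph.WT 15 members reached it (8 higher, 7 lower), beside 51.6% of genes (4242 higher, 4102 lower). In L.O against Sph.WT 17 members did (10 higher, 7 lower), beside 52.3% of genes (4623 higher, 4252 lower). These counts lie within a few members of the background and set the family apart in none of the 3 comparisons.

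The median log2 fold changes of the members were -0.06, -0.28 and -0.34 in these comparisons, and those of all genes tested -0.01, 0.01 and -0.01. Scaling by library totals in place of TMM moved the median of all genes by -0.15 for capsules against L.O, by 0.28 for capsules against Sph.WT and by 0.46 for L.O against Sph.WT. The split of members then became 5 higher and 15 lower, 14 higher and 13 lower, and 17 higher and 11 lower. Upper-quartile scaling gave 5 and 13, 14 and 13, and 16 and 12. Small differences against Sph.WT can therefore change call or sign with the scaling, and directions below are relative to the TMM median unless stated.

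**Figure D2:**
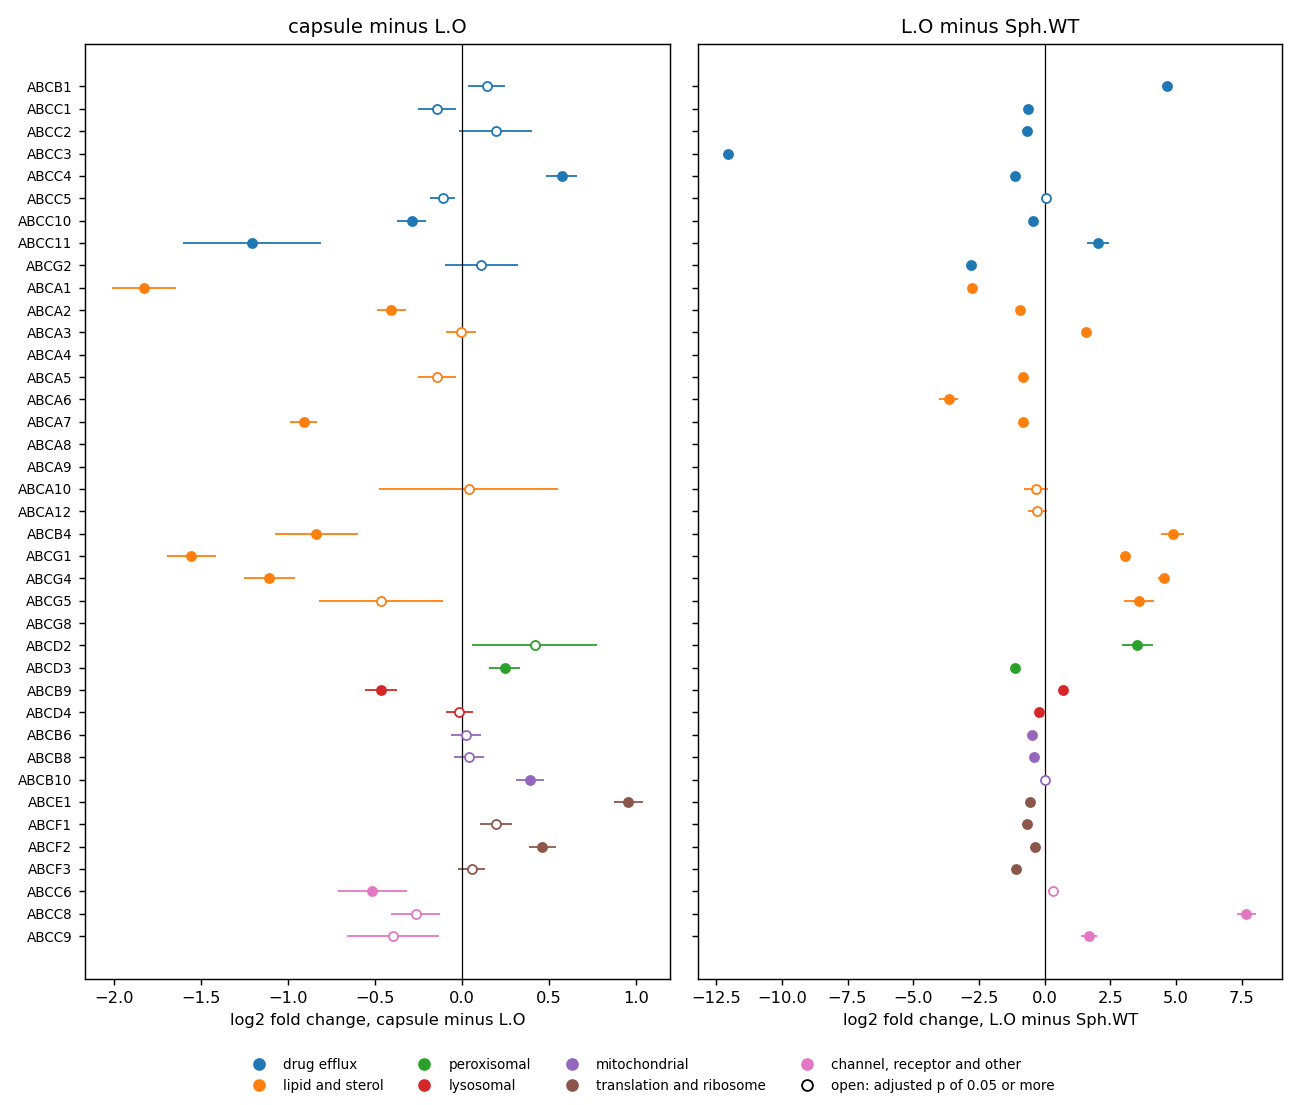
Log2 fold change of the members reported (horizontal axis) with its SE, capsule minus L.O on the left and L.O minus Sph.WT on the right, coloured by class; filled points had an adjusted p under 0.05 and open points did not, and members with no point were filtered out. On the left ABCA1, ABCG1, ABCC11 and ABCG4 lie below -1 and ABCE1 is highest at 0.96, while on the right ABCC3 lies at -12.04. The horizontal axes differ between panels.

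Among the drug efflux members, ABCB1, ABCG2 and ABCC3 differed most from Sph.WT, and the other ABCC pumps were closer. Of 8 tested in capsules against L.O, 1 was higher, 2 lower and 5 were not called, beside 24.7% of all genes higher and 25.4% lower. Against Sph.WT, 1 of 8 was higher in capsules and 6 lower, beside 43.2% and 42.9% of all genes; 3 of the 8 passed 2-fold, beside 51.6% of all genes. In L.O against Sph.WT 2 of 9 were higher and 6 lower, beside 42.4% and 43.1% of all genes.

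ABCB1 encodes P-glycoprotein, the pump first known from multidrug-resistant cells. It had 26.4, 22.8 and 24.1 CPM in capsules and 27.002, 25.3 and 21.1 CPM in L.O, against 0.453, 0.722 and 0.964 CPM in Sph.WT. The capsule and L.O libraries overlapped, and every Sph.WT library lay below 1 CPM. The log2 fold change was 0.14 ± 0.11 in capsules against L.O (SE, adjusted p = 0.277), 4.82 ± 0.18 in capsules against Sph.WT (SE, adjusted p = 5.32e-15) and 4.64 ± 0.18 in L.O against Sph.WT (SE, adjusted p = 1.03e-16). The gene span of RUNDC3B overlaps that of ABCB1, and its mean levels were 10.6 CPM in capsules, 8.02 CPM in L.O and 0.295 CPM in Sph.WT. Only whole gene spans were compared, not exons, and strandedness is not stated, so whether the pair shares reads is not known. The same holds for ABCC11 with LONP2, ABCC10 with DLK2, ABCB4 with CROT, ABCB9 with OGFOD2, ABCE1 with ANAPC10, ABCA1 with NIPSNAP3B, ABCA2 with LINC02908, ABCA12 with SNHG31, ABCG5 with DYNC2LI1 and ABCG8, ABCA5 with ABCA10 and ABCA6 with ABCA9.

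ABCC3 and ABCG2 ran the other way. ABCC3 had 0.303, 0.218 and 0.294 CPM in capsules and 0.320, 0.313 and 0.129 CPM in L.O, against 844, 802 and 759 CPM in Sph.WT. Those capsule and L.O levels rest on 11 and 12 counts summed over 3 libraries each, against 56053 in Sph.WT. The log2 fold change was -11.77 ± 0.14 in capsules against Sph.WT (SE, adjusted p = 1.44e-21), and ABCC3 was too low to be tested between capsules and L.O. ABCG2, the breast cancer resistance protein, which exports many drugs and urate, had 2.80, 4.004 and 3.31 CPM in capsules and 3.90, 3.69 and 2.77 CPM in L.O, against 16.5, 17.1 and 19.2 CPM in Sph.WT. Its log2 fold change was -2.65 ± 0.15 in capsules against Sph.WT (SE, adjusted p = 1.87e-12) and 0.11 ± 0.21 in capsules against L.O (SE, adjusted p = 0.682). Capsule and L.O libraries overlapped for both pumps.

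**Figure D3:**
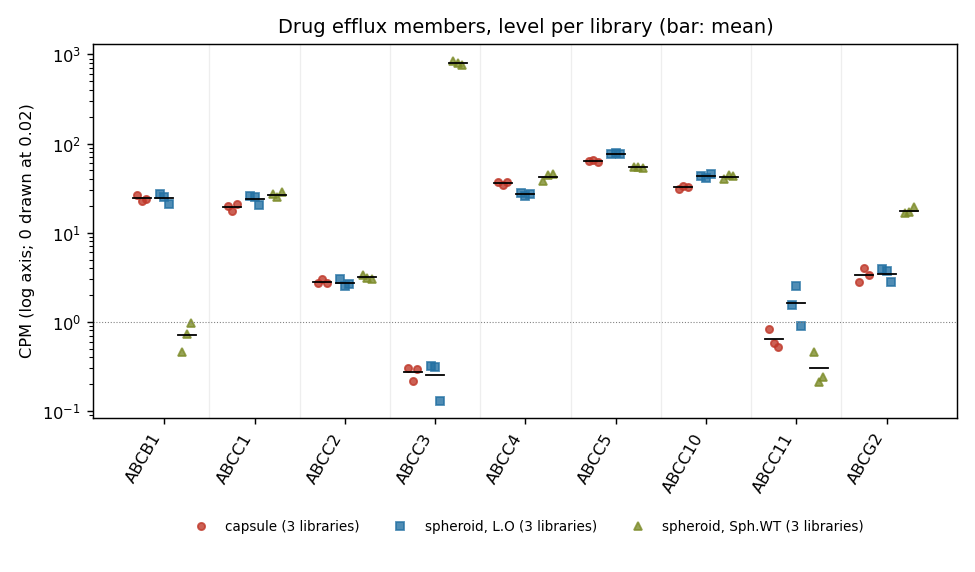
Level of the 9 drug efflux members in CPM on a log axis (vertical), capsules, L.O and Sph.WT from left to right within each gene; points are libraries, short bars means over 3 libraries, and the dotted line marks 1 CPM. ABCB1 averaged 24.4 in capsules and 24.5 in L.O against 0.713 in Sph.WT, and ABCC3 0.272 and 0.254 against 802.

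Apart from ABCC11, the other ABCC pumps were above 1 CPM in every library and at closer levels. Even so, ABCC4 was lower in L.O than in Sph.WT by a log2 fold change of -1.13 ± 0.09 (SE, adjusted p = 8.63e-11). ABCC11 was higher there by 2.02 ± 0.43 (SE, adjusted p = 0.000139), with 20 counts in all in Sph.WT. ABCC1, an exporter of glutathione conjugates, had 20.1, 17.5 and 21.0 CPM in capsules, against 25.5, 25.4 and 20.7 CPM in L.O and 27.02, 25.1 and 28.2 CPM in Sph.WT. Its log2 fold change was -0.14 ± 0.11 in capsules against L.O (SE, adjusted p = 0.282) and -0.73 ± 0.10 in capsules against Sph.WT (SE, adjusted p = 1.07e-06). With library totals ABCC1 also passed against L.O, at -0.29 (adjusted p = 0.0338). The cyclic nucleotide exporter ABCC4 was higher in capsules than in L.O, with 37.3, 34.0 and 37.1 CPM in capsules, against 28.0, 25.7 and 26.9 CPM in L.O and 37.7, 44.6 and 45.4 CPM in Sph.WT. That difference was 0.57 ± 0.09 on the log2 scale (SE, adjusted p = 2.60e-05), with no overlap of the libraries, while against Sph.WT ABCC4 was lower in capsules at -0.51 ± 0.09 (SE, adjusted p = 3.28e-05).

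ABCC10 and ABCC11 were the 2 efflux members lower in capsules than in L.O. ABCC10 had 31.1, 33.0 and 32.4 CPM in capsules, against 43.6, 41.3 and 45.5 CPM in L.O and 40.4, 44.7 and 42.9 CPM in Sph.WT, a log2 fold change of -0.29 ± 0.08 against L.O (SE, adjusted p = 0.00722). ABCC11, known in humans for the earwax type, had 0.832, 0.582 and 0.515 CPM in capsules, against 1.54, 2.50 and 0.902 CPM in L.O and 0.453, 0.210 and 0.241 CPM in Sph.WT. Its log2 fold change of -1.21 ± 0.40 against L.O (SE, adjusted p = 0.0165) was lost without capsule replicate 2 (-1.15, adjusted p = 0.0648), capsule replicate 3 (-1.06, adjusted p = 0.0697) or L.O replicate 2 (-0.78, adjusted p = 0.149). ABCC5, another cyclic nucleotide exporter, averaged 64.0 ± 1.55 CPM in capsules, 76.6 ± 0.998 CPM in L.O and 54.1 ± 0.955 CPM in Sph.WT (SD, n = 3 each). ABCC5 passed in none of the 4 comparisons with TMM, and in 3 of them the call hung on the scaling. With upper-quartile scaling its log2 fold change was -0.19 in capsules against L.O (adjusted p = 0.0381), 0.22 in capsules against Sph.WT (adjusted p = 0.00704, against -0.04 with TMM) and 0.41 in L.O against Sph.WT (adjusted p = 1.24e-05). ABCC2, a canalicular conjugate pump in liver, averaged 2.81 ± 0.151 CPM in capsules, 2.72 ± 0.261 CPM in L.O and 3.14 ± 0.160 CPM in Sph.WT (SD, n = 3 each), and its call against Sph.WT (-0.44, adjusted p = 0.0401) was lost with DESeq2 (adjusted p = 0.123) and with the other scalings.

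Of the lipid and sterol members, 0 of 10 tested were higher in capsules than in L.O, 6 were lower and 4 were not called, beside 24.7% of all genes higher and 25.4% lower. The median log2 fold change was -0.65 beside -0.01 over all genes. The cholesterol exporters ABCA1, ABCG1 and ABCG4 were among the lower ones. Against Sph.WT the class went both ways, with 4 of 10 higher in capsules and 5 lower, and L.O against Sph.WT gave 5 of 12 higher and 5 lower. These counts lie near the shares over all genes, 43.2% and 42.9% for capsules and 42.4% and 43.1% for L.O.

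ABCA1 passes cholesterol and phospholipid to apolipoprotein A-I, and its promoter is the third printed above. It had 1.67, 1.75 and 1.99 CPM in capsules, against 7.42, 7.26 and 6.63 CPM in L.O and 37.3, 28.5 and 40.6 CPM in Sph.WT. The sets did not overlap and stood in that order. In capsules the log2 fold change was -1.83 ± 0.19 against L.O (SE, adjusted p = 2.65e-07) and -4.56 ± 0.17 against Sph.WT (SE, adjusted p = 2.98e-15), and in L.O against Sph.WT it was -2.77 ± 0.13 (SE, adjusted p = 1.61e-15).

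ABCG1 and ABCG4, which load cholesterol onto lipoprotein particles, took a different order, with L.O highest. ABCG1 had 4.84, 3.79 and 5.15 CPM in capsules, against 13.9, 15.2 and 15.8 CPM in L.O and 1.01, 1.77 and 0.783 CPM in Sph.WT. ABCG4 had 6.36, 6.70 and 5.00 CPM in capsules, against 13.6, 13.0 and 16.6 CPM in L.O and 0.503, 0.451 and 0.361 CPM in Sph.WT. No library of one set overlapped another for either gene. In capsules against L.O the log2 fold change was -1.56 ± 0.14 for ABCG1 (SE, adjusted p = 6.64e-08) and -1.11 ± 0.15 for ABCG4 (SE, adjusted p = 4.87e-06). Against Sph.WT capsules were higher, by 1.56 ± 0.26 for ABCG1 (SE, adjusted p = 1.74e-05) and by 3.46 ± 0.26 for ABCG4 (SE, adjusted p = 1.76e-10).

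**Figure D4:**
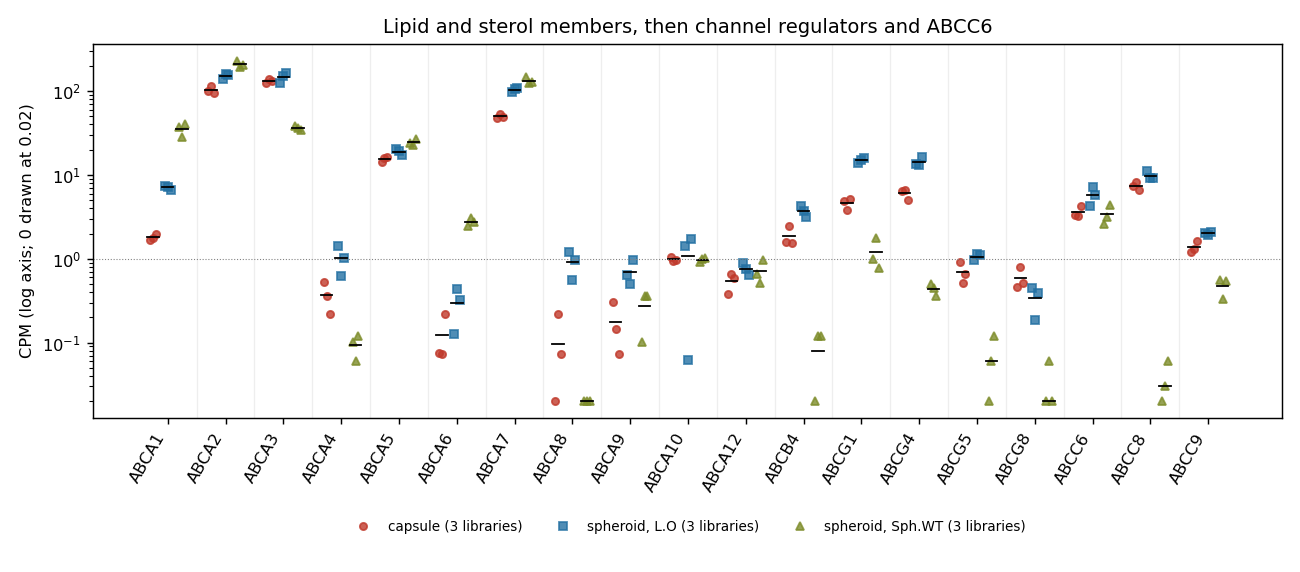
Level of the 16 lipid and sterol members, then ABCC6, ABCC8 and ABCC9, in CPM on a log axis (vertical, 0 drawn at 0.02), capsules, L.O and Sph.WT from left to right within each gene; points are libraries and short bars means over 3 libraries. ABCA1 averaged 1.80 in capsules and 7.10 in L.O against 35.5 in Sph.WT, while ABCG1 averaged 4.59 and 15.0 against 1.19.

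The remaining lower members were ABCA7, ABCB4 and ABCA2. ABCA7, given by library above, had a log2 fold change of -0.91 ± 0.08 in capsules against L.O (SE, adjusted p = 2.99e-08) and -1.69 ± 0.08 against Sph.WT (SE, adjusted p = 1.88e-13). ABCB4, which moves phosphatidylcholine into bile, had 1.59, 2.48 and 1.54 CPM in capsules, against 4.22, 3.75 and 3.16 CPM in L.O and 0, 0.120 and 0.120 CPM in Sph.WT. It was lower in capsules than in L.O by a log2 fold change of -0.84 ± 0.24 (SE, adjusted p = 0.00651) and higher than in Sph.WT by 4.07 ± 0.50 (SE, adjusted p = 2.79e-07), where Sph.WT held 6 counts in all. Without Sph.WT replicate 2, the log2 fold change of L.O against Sph.WT for ABCB4 was 5.47 in place of 4.87. ABCA2, a lysosomal sterol carrier of the nervous system, had 100.3, 116 and 93.8 CPM in capsules, against 140.3, 159 and 156 CPM in L.O and 229, 194 and 208 CPM in Sph.WT, with log2 fold changes of -0.41 ± 0.08 against L.O (SE, adjusted p = 0.000445) and -1.30 ± 0.08 against Sph.WT (SE, adjusted p = 2.46e-11).

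ABCA3, the most abundant lipid member per kilobase in capsules, had 125, 141 and 133 CPM in capsules and 126, 151 and 166 CPM in L.O, against 37.9, 36.3 and 34.6 CPM in Sph.WT. It did not pass against L.O (log2 fold change -0.01 ± 0.09, SE, adjusted p = 0.964) and was higher in capsules than in Sph.WT by 1.60 ± 0.08 (SE, adjusted p = 2.49e-13). ABCA6 was highest in Sph.WT, with 0.0757, 0.0728 and 0.221 CPM in capsules and 0.128, 0.438 and 0.322 CPM in L.O, against 2.47, 3.10 and 2.71 CPM in Sph.WT. In capsules against Sph.WT the log2 fold change was -4.69 ± 0.40 (SE, adjusted p = 1.73e-09), and -5.39 without capsule replicate 3. ABCA5 averaged 15.6 ± 1.10 CPM in capsules, 19.0 ± 1.67 CPM in L.O and 24.5 ± 2.25 CPM in Sph.WT (SD, n = 3 each) and passed against Sph.WT only (-0.93 ± 0.10, SE, adjusted p = 8.25e-08), though with library totals also against L.O (-0.29, adjusted p = 0.0334).

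The other lipid members were scarce. ABCA4, ABCA8, ABCA9, ABCA10, ABCA12, ABCG5 and ABCG8 averaged between 0.0973 CPM (ABCA8) and 0.987 CPM (ABCA10) in capsules. ABCA10 was uneven in L.O, with 1.41, 0.0625 and 1.74 CPM. ABCA8 had 0 counts in all 3 Sph.WT libraries, which allows up to 0.151, 0.0902 and 0.181 CPM, counting error only, against 1.22, 0.563 and 0.966 CPM in L.O. ABCG5 and ABCG8, the sterol exporters of gut and liver that share one start region, were close to absent in Sph.WT, with 4 and 2 counts in all. ABCG5 had 0.908, 0.510 and 0.662 CPM in capsules and 0.960, 1.13 and 1.10 CPM in L.O, against 0, 0.0601 and 0.120 CPM in Sph.WT, and its log2 fold change in L.O against Sph.WT was 3.60 ± 0.57 (SE, adjusted p = 3.67e-06).

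Peroxisomal ABCD3, which carries branched and bile acid precursors, had 73.9, 66.5 and 76.3 CPM in capsules and 76.8, 66.7 and 58.7 CPM in L.O, against 104, 110 and 109 CPM in Sph.WT. Its log2 fold change of 0.25 ± 0.09 in capsules against L.O (SE, adjusted p = 0.0307) was lost with upper-quartile scaling (0.17, adjusted p = 0.128) or library totals (0.10, adjusted p = 0.378) and without each of 4 libraries: capsule replicate 1 (adjusted p = 0.102), capsule replicate 3 (adjusted p = 0.101), L.O replicate 2 (adjusted p = 0.0981) and L.O replicate 3 (adjusted p = 0.118). Against Sph.WT ABCD3 was lower in capsules, at -0.85 ± 0.07 (SE, adjusted p = 2.22e-09). ABCD2, a fatty acid carrier, had 1.14, 0.874 and 1.62 CPM in capsules and 1.47, 0.813 and 0.708 CPM in L.O, against 0.0503, 0.0601 and 0.0602 CPM in Sph.WT, where it rested on 4 counts. That difference in capsules against Sph.WT was 3.97 ± 0.53 on the log2 scale (SE, adjusted p = 8.52e-07), and ABCD2 did not pass against L.O (0.42 ± 0.36, SE, adjusted p = 0.348).

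Lysosomal ABCB9, a peptide carrier, averaged 19.9 ± 0.817 CPM in capsules, 30.4 ± 0.477 CPM in L.O and 13.6 ± 0.678 CPM in Sph.WT (SD, n = 3 each). It was lower in capsules than in L.O (-0.47 ± 0.09, SE, adjusted p = 0.000355). ABCB9 was higher in capsules than in Sph.WT (0.28 ± 0.10, SE, adjusted p = 0.0194), a call lost without capsule replicate 1 (adjusted p = 0.117), capsule replicate 2 (adjusted p = 0.0752) or Sph.WT replicate 1 (adjusted p = 0.0692). ABCD4, needed to release cobalamin from lysosomes, averaged 63.8 ± 4.20 CPM in capsules, 71.3 ± 4.09 CPM in L.O and 59.9 ± 1.13 CPM in Sph.WT (SD, n = 3 each). It did not pass against L.O (-0.01 ± 0.08, SE, adjusted p = 0.893), and its small difference from Sph.WT changed sign with the scaling, -0.19 with TMM against 0.07 with upper-quartile scaling and 0.09 with library totals.

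Mitochondrial ABCB10 was higher in capsules than in L.O, and ABCB6 and ABCB8 did not pass against L.O. ABCB10, which is needed for heme synthesis, had 60.3, 58.4 and 52.7 CPM in capsules, against 49.1, 47.8 and 47.5 CPM in L.O and 32.0, 35.0 and 37.2 CPM in Sph.WT. The 3 sets did not overlap for ABCB10 in CPM by library totals. With TMM, however, ABCB10 did not pass in L.O against Sph.WT (log2 fold change 0.01 ± 0.09, SE, adjusted p = 0.916). Its log2 fold change in capsules was 0.39 ± 0.08 against L.O (SE, adjusted p = 0.000470) and 0.44 ± 0.09 against Sph.WT (SE, adjusted p = 9.73e-05). ABCB6 averaged 30.3 ± 0.749 CPM in capsules, 32.9 ± 1.84 CPM in L.O and 33.3 ± 5.68 CPM in Sph.WT, and ABCB8 34.4 ± 2.46, 37.0 ± 0.842 and 34.9 ± 2.83 CPM (SD, n = 3 each). Their calls as lower than Sph.WT, at -0.40 and -0.31, were lost with either other scaling.

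The translation members ABCE1 and ABCF2 were higher in capsules than in L.O, and 0 of the 4 were lower. Over all genes 24.7% were higher and 25.4% lower, and counts from 4 members do not set the class apart. ABCE1 splits ribosomes after termination. It had 162, 151 and 172 CPM in capsules, against 104, 87.2 and 84.2 CPM in L.O and 84.0, 105 and 106 CPM in Sph.WT, so that all capsule libraries lay above all 6 spheroid libraries. In capsules the log2 fold change was 0.96 ± 0.08 against L.O (SE, adjusted p = 4.44e-08) and 0.44 ± 0.09 against Sph.WT (SE, adjusted p = 0.000106). Against all 6 spheroids ABCE1 did not pass (0.66 ± 0.20, SE, adjusted p = 0.108), and it passed with upper-quartile scaling (0.78, adjusted p = 0.0252) and with library totals (0.76, adjusted p = 0.0212).

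ABCF2 had 131, 132 and 139 CPM in capsules, against 108, 118 and 96.7 CPM in L.O and 96.4, 111 and 93.2 CPM in Sph.WT. For ABCF2 the log2 fold change was 0.46 ± 0.08 against L.O (SE, adjusted p = 6.02e-05) and 0.14 ± 0.08 against Sph.WT (SE, adjusted p = 0.114), the second passing with upper-quartile scaling (0.40), with library totals (0.42) and without Sph.WT replicate 2 (0.22, adjusted p = 0.0100). ABCF1, which binds the initiation factor eIF2, had 26.0, 24.6 and 28.8 CPM in capsules and 24.8, 27.02 and 24.9 CPM in L.O, against 32.5, 30.6 and 26.3 CPM in Sph.WT. It did not pass in capsules against L.O (0.20 ± 0.09, SE, adjusted p = 0.0896). With TMM, ABCF1 was lower than in Sph.WT both in capsules (-0.45 ± 0.10, SE, adjusted p = 0.000394) and in L.O (-0.69 ± 0.10, SE, adjusted p = 9.38e-07). In CPM by library totals, the libraries of both sets overlapped those of Sph.WT. ABCF3 had 50.4, 53.1 and 48.1 CPM in capsules and 50.3, 56.7 and 54.6 CPM in L.O, against 83.7, 84.4 and 79.9 CPM in Sph.WT, with a log2 fold change of -0.99 ± 0.08 in capsules against Sph.WT (SE, adjusted p = 3.71e-10).

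**Figure D5:**
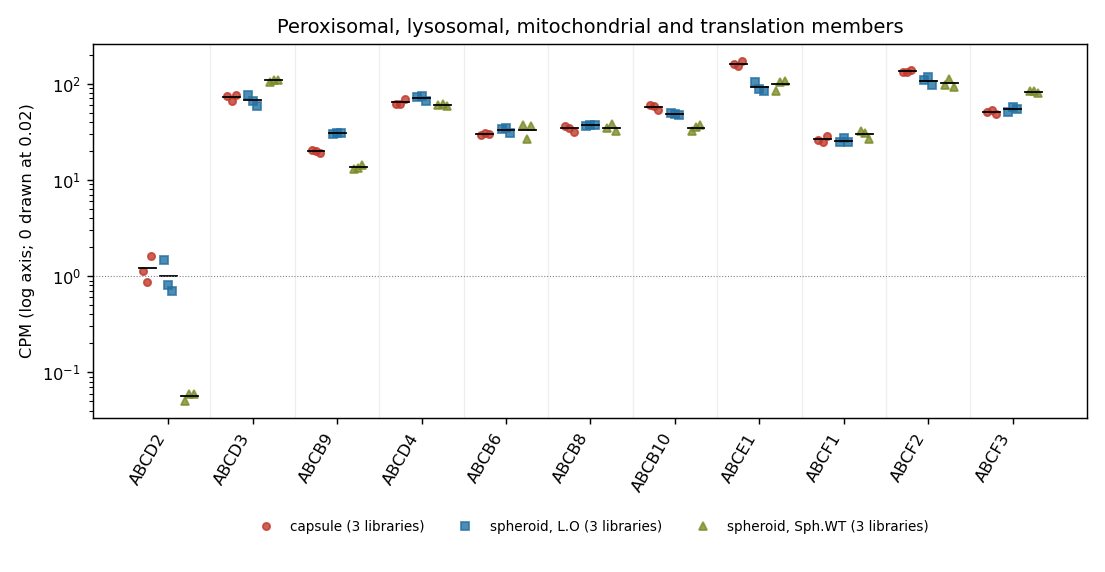
Level of the peroxisomal, lysosomal, mitochondrial and translation members reported, in CPM on a log axis (vertical), capsules, L.O and Sph.WT from left to right within each gene; points are libraries and short bars means over 3 libraries. ABCE1 averaged 162 in capsules against 91.9 in L.O and 98.3 in Sph.WT, and ABCB9 19.9 in capsules against 30.4 in L.O and 13.6 in Sph.WT.

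ABCC8 and ABCC9 are the sulfonylurea receptors of ATP-sensitive potassium channels. ABCC8 had 7.34, 8.23 and 6.62 CPM in capsules and 11.005, 9.26 and 9.27 CPM in L.O, against 0, 0.0301 and 0.0602 CPM in Sph.WT, or 2 counts in all. By library totals, the CPM ratio to Sph.WT was 258 in capsules (95% counting interval 70.8 to 2140) and 343 in L.O (94.5 to 2842), and the interval covers counting error only. With TMM the log2 fold change against Sph.WT was 7.44 ± 0.39 in capsules (SE, adjusted p = 8.78e-13) and 7.68 ± 0.36 in L.O (SE, adjusted p = 2.12e-15). ABCC9 had 1.21, 1.31 and 1.62 CPM in capsules and 2.05, 1.94 and 2.06 CPM in L.O, against 0.554, 0.331 and 0.542 CPM in Sph.WT, a log2 fold change of 1.32 ± 0.34 in capsules against Sph.WT (SE, adjusted p = 0.00129). ABCC6, a liver and kidney protein linked to tissue calcification, averaged 3.62 ± 0.556 CPM in capsules, 5.74 ± 1.42 CPM in L.O and 3.39 ± 0.912 CPM in Sph.WT (SD, n = 3 each), and its reads may be shared with the pseudogenes ABCC6P1 and ABCC6P2. Its call against L.O (-0.52, adjusted p = 0.0368) was lost with DESeq2 (adjusted p = 0.0917) and without capsule replicate 1 (adjusted p = 0.107), capsule replicate 2 (adjusted p = 0.126) or L.O replicate 2 (adjusted p = 0.225).

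Lists of genes that work beside the transporters were read from the same fits, beside 24.7% of all genes higher and 25.4% lower in capsules than in L.O. Of 9 ribosome recycling and initiation partners of ABCE1 and ABCF, 6 were higher and 0 lower in capsules than in L.O (median log2 fold change 0.43), among them the release factor ETF1 (0.62), EIF2S2 (0.77) and EIF3J (0.82). Of 9 genes of glutathione supply and conjugation, which feed ABCC export, 5 were higher and 0 lower (median 0.27), led by the cystine carrier SLC7A11 at 2.05 ± 0.11 (SE, adjusted p = 7.23e-11). Of 8 sterol traffic partners, 2 were higher and 4 lower (median -0.20): APOE, a cholesterol acceptor, was lower by -1.71 ± 0.14 (SE, adjusted p = 1.66e-08). Among 12 sterol and xenobiotic regulators, 2 were higher and 1 lower, the last being the oxysterol receptor NR1H2 (LXR beta) at -0.38. Of 10 peroxisome partners 5 were higher and 1 lower, of 8 mitochondrial iron-sulfur and heme partners 4 and 0, of 4 cobalamin partners 3 and 0, of 8 uptake transporters 2 and 2, and of TAP1, TAP2 and TAPBP 0 and 1. Several of these counts, such as those of the regulators and the uptake transporters, lie near the shares over all genes. The pore subunits KCNJ8 and KCNJ11 of the ABCC8 and ABCC9 channels were higher (0.50) and lower (-0.39) in capsules than in L.O.

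Against Sph.WT, where 43.2% of all genes were higher in capsules and 42.9% lower, the lists went both ways. Of 12 regulators 1 was higher and 11 lower, of 9 glutathione genes 2 and 7, of 8 sterol partners 2 and 6, of 9 uptake transporters 1 and 8, and of 10 peroxisome partners 2 and 7. Of 9 ribosome partners 5 were higher and 3 lower, of 8 mitochondrial partners 4 and 2, of 4 cobalamin partners 1 and 2, of 2 KATP channel subunits 2 and 0, and of the 3 TAP genes 0 and 3. KCNJ8 had 24.1, 20.5 and 23.6 CPM in capsules and 19.3, 16.2 and 17.8 CPM in L.O, against 0.956, 0.812 and 1.32 CPM in Sph.WT. KCNJ11 had 10.3, 9.90 and 12.6 CPM in capsules and 14.7, 15.1 and 17.7 CPM in L.O, against 0.201, 0.24 and 0.181 CPM in Sph.WT. ABCC8 had 2 counts in all in that set. In these bulk samples fewer cells of a type and less RNA per cell cannot be told apart.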

How the data were processed

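The table that the authors deposited holds raw read counts for 17911 genes in 9 columns. The submitters' processing notes name hg38, featureCounts and limma, and some column headers name subread. The sources used here state no versions, annotation or strandedness. Columns were matched by name: 3 to capsule samples and 6 to the spheroid group, in sets named L.O and Sph.WT.

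Standard errors are the log2 fold change over the square root of F. CPM used library totals; lengths were unions of GENCODE 29 exons. Tests used edgeR 4.0.16 (TMM, filterByExpr, quasi-likelihood, Benjamini-Hochberg over all genes tested, threshold 0.05) in R 4.3.3, checked on simulated counts. For capsules against all spheroids the simulated counts had a narrow spread and no difference between the spheroid sets. They cannot vouch for that fit, where the common biological coefficient of variation was 66.0%. Capsules were fitted against all spheroids and against each set alone; L.O against Sph.WT came from a fit with 3 levels over 9 libraries. Other settings were DESeq2 1.42.0, upper-quartile scaling, library totals, other count filters, a replicate block and each library left out; those for single sets were chosen after seeing the data. Tables and figures used Python 3.11.15, pandas 2.3.3, scipy 1.17.1 and matplotlib 3.10.9.

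The members and all lists were chosen with earlier results of these data known. Values by library were given for ABCB1, ABCC1, ABCG2, ABCA1, ABCG1, ABCD3, ABCE1 and ABCF1, and for the 8 members with the largest called 2-fold change in each direction at 1 CPM or more on average; values of the others were added after they were seen. Some genes are counted in the totals and classes but not reported here. Replicate libraries were distinct: 1203 to 5055 genes differed beyond counting noise within pairs of a set.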

Additional observations from a re-analysis of the deposited data

How the results depend on the processing

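Limits come first: 3 libraries a set, no label for spheroid size, and for members under 1 CPM too few counts to read small differences. The comparison of capsules with all 6 spheroids was the unstable one. It called 639 genes, with 0 members higher and 2 lower, against 3990 genes, 3 higher and 7 lower with DESeq2. Library totals gave 359 genes and 1 member higher, and upper-quartile scaling 1 member higher. With 3 levels and the mean of both sets it called 12643 genes, 11 members higher and 13 lower. L.O alone gave 7970 genes with 6 higher and 11 lower, and Sph.WT alone 13909 genes with 12 higher and 18 lower. Leaving out each library in turn gave 0 to 604 genes and 0 to 2 members lower. Each run without a capsule library called 0 genes by edgeR, with 2448 to 2620 genes and 8 to 9 of 40 members at an unadjusted p under 0.05. For L.O against Sph.WT, members lower fell to 12 with upper-quartile scaling and 11 with library totals, against 19, and members higher were 17 with library totals, against 11. In these cases the cause was not tested, except that other scalings move all genes together.

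Same-numbered libraries deviated together in no regular way (r from -0.36 to 0.17 across 12168 genes), so the numbers share only a name. With the replicate block, capsules against all spheroids called 0 genes and 0 members lower by edgeR, with 2856 genes and 9 of 37 members at an unadjusted p under 0.05. Capsules against L.O then called 7145 genes and 6 members higher and 11 lower, against Sph.WT 13876 genes and 12 and 17, and L.O against Sph.WT 14350 genes and 11 and 19.

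Log2 fold changes of members took the other sign in 80 cases, and in 63 of these neither value passed the test. With upper-quartile scaling, capsules against all spheroids gave 0.069 for ABCC4 and 0.00055 for ABCC5. With library totals, capsules against all spheroids gave 0.058 for ABCC4 and -0.012 for ABCB4. With the mean of both sets, capsules against all spheroids gave 0.013 for ABCC4 and 1.16 for ABCG4. With the set L.O alone, capsules against all spheroids gave 0.20 for ABCC2, 0.57 for ABCC4, 0.11 for ABCG2, -0.0054 for ABCA3, 0.038 for ABCA10, -0.84 for ABCB4, -0.47 for ABCG5, 0.25 for ABCD3, 0.024 for ABCB6, 0.040 for ABCB8, 0.20 for ABCF1, 0.055 for ABCF3, -0.27 for ABCC8 and -0.40 for ABCC9. With the set Sph.WT alone, capsules against all spheroids gave 1.56 for ABCG1, 3.46 for ABCG4 and 0.28 for ABCB9. Leaving out each library in turn there gave -0.14 to 0.52 for ABCB4, -0.41 to 0.23 for ABCG4, -0.20 to 0.025 for ABCC4. With DESeq2, capsules against L.O gave 0.0074 for ABCA3. With upper-quartile scaling, capsules against L.O gave -0.036 for ABCA10, -0.051 for ABCB6, -0.035 for ABCB8 and -0.020 for ABCF3. With library totals, capsules against L.O gave -0.0039 for ABCB1, -0.034 for ABCG2, -0.11 for ABCA10, -0.12 for ABCB6, -0.11 for ABCB8 and -0.092 for ABCF3. With no filter, capsules against L.O gave 0.0055 for ABCA3. With replicate block, capsules against L.O gave 0.00098 for ABCA3. Leaving out each library in turn there gave -0.10 to 0.086 for ABCA3, -0.53 to 0.58 for ABCA10, -0.062 to 0.014 for ABCD4, -0.012 to 0.11 for ABCB8, -0.035 to 0.22 for ABCG2, -0.022 to 0.051 for ABCB6. With upper-quartile scaling, capsules against Sph.WT gave 0.22 for ABCC5, 0.070 for ABCD4 and 0.10 for ABCC6. With library totals, capsules against Sph.WT gave 0.24 for ABCC5, 0.019 for ABCA10, 0.090 for ABCD4 and 0.12 for ABCC6. Leaving out each library in turn there gave -0.32 to 0.0050 for ABCC6. With upper-quartile scaling, L.O against Sph.WT gave 0.037 for ABCA10, 0.089 for ABCA12, 0.16 for ABCD4 and 0.0099 for ABCF2. With library totals, L.O against Sph.WT gave 0.024 for ABCC10, 0.13 for ABCA10, 0.18 for ABCA12, 0.25 for ABCD4, 0.078 for ABCB8 and 0.10 for ABCF2. Leaving out each library in turn there gave -0.055 to 0.037 for ABCB10, -0.87 to 0.23 for ABCA10.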
